A study of Mus musculus with 13 samples.

Results

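The heat shock protein 70, 90 and 110 chaperones of the cytosol and the heat shock transcription factor Hsf1 are described here in mouse microglia, through the 9 genes Hspa1a, Hspa1b, Hspa8, Hspa4, Hspa4l, Hsph1, Hsp90aa1, Hsp90ab1 and Hsf1. They were chosen by gene symbol, 9 of 14518 gene entries in the expression table, and each symbol was found on 1 row. All 9 had enough reads to enter the tests across genes. Their levels by group within sample numbers 1 to 8 and 10 to 19 were known when they were chosen, so differences between groups and between number ranges are given for them as a description, without p-values. Where the number of members past a threshold is given, it stands beside the share of all genes past it and supports nothing about the members.

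Microglia, the resident macrophages of the brain, came from 2-month-old C57BL/6 mice. The RSD group (7 samples) was put through 6 rounds of repeated social defeat, a stress model in which a mouse is repeatedly attacked by an aggressor, and the CON group (6 samples) held the controls. Cells were isolated 24 days after the last cycle by Percoll enrichment and flow-sorted for CD11b and an intermediate level of CD45. This isolation is described alike for both groups, and whether it ran alike for every library was not tested. The comparison asks what still differed in microglia at that time. The sample titles carry the numbers 1, 4, 5, 17, 18 and 19 for CON and 2, 7, 8, 10, 11, 12 and 13 for RSD, which leaves 3 RSD and 3 CON libraries in the numbers 1 to 8 and 4 RSD and 3 CON libraries in the numbers 10 to 19. The labels do not say what the numbers stand for, nor that each sample was a separate animal.

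HSP70 proteins bind exposed hydrophobic stretches of unfolded proteins in a cycle driven by ATP. J-domain proteins of the DNAJ family deliver the clients and start ATP hydrolysis, and exchange factors, among them the HSP110 proteins, release the ADP and so reset the cycle. HSP90 takes over partly folded clients such as kinases and hormone receptors. HSF1 is held inactive in unstressed cells, partly by these same chaperones, and on proteotoxic stress it forms trimers and switches on the inducible members through heat shock elements, inverted repeats of the unit nGAAn. Transcripts of this response are also known to rise when brain tissue is dissociated into single cells.

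Promoter sequence was at hand for 5 of the 9 genes, from RefSeq on the build GRCm38.p6. The 250 bases before each start were searched on both strands for a heat shock element of 2 units (GAANNTTC or TTCNNGAA), for one of 3 units (either of these followed by another gap NN and the next alternating unit, GAA or TTC, so that it always contains a 2-unit match) and for CCAAT. The 4 windows below are shown because Hspa1a, Hspa1b and Hsph1 spanned the widest range of levels among the members and Hspa4 the narrowest. Each is written 5′ to 3′ on the minus strand, which is the strand of all 4 genes, and capitals mark the 2-unit element. The windows are chr17:34972157-34972306 for Hspa1a, chr17:34959239-34959388 for Hspa1b, chr5:149636352-149636486 for Hsph1 and chr11:53300480-53300629 for Hspa4.
Hspa1a: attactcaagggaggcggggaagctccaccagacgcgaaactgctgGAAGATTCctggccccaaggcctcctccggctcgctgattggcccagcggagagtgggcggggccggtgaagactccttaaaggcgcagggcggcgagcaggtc
Hspa1b: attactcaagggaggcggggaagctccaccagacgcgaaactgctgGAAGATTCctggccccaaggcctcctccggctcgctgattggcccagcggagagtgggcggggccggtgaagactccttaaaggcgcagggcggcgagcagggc
Hsph1: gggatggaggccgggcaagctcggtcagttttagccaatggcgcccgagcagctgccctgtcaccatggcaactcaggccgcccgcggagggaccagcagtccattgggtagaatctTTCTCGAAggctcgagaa
Hspa4: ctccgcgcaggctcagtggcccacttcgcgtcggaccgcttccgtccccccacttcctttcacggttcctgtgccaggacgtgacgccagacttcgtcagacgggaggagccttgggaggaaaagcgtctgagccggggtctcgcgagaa
Hspa1a and Hspa1b each had 1 element of 2 units, starting at base -104 before the start, and 1 CCAAT, and 149 of the 150 printed bases were identical between them. Hsph1 had 1 element and 2 CCAAT. The element lies at base -33 of the RefSeq start used for its window, and at base -54 of another RefSeq start of the gene. It falls within the transcribed part of the gene in the GENCODE M21 annotation. Hspa4 had no match to the 2-unit letters in its 250 bases. Neither had Hspa4l, but the last 150 of its 250 bases lie within the transcribed part of the gene in GENCODE M21 and are not shown. None of the 5 genes had a 3-unit match. Among 32851 RefSeq promoters of the same length, 12.8% held a 2-unit match, 0.466% a 3-unit match and 33.8% a CCAAT. The 2-unit letters and CCAAT are thus common, and a match describes sequence only.

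Sequencing depth was 9.76 to 12.3 M reads per library, and values are normalized reads, that is, read counts divided by a factor for each library's depth. RSD libraries stood at 9.76 to 11.0 M and CON libraries at 10.3 to 12.2 M in numbers 1 to 8, and at 10.3 to 12.3 and 9.89 to 11.9 M in numbers 10 to 19. For a transcript with 100 reads, counting alone gives an error near 10%. Defining microglial genes were high in all libraries, with an 11-gene sum of 325894 to 350222 normalized reads in 12 of them. CON 18 stood apart at 212124, with 18926 of P2ry12 and 4226 of Sall1 (both microglial), and with 16085 over 7 markers of border-associated macrophages, 12409 of them Mrc1, where the others had 250.8 to 487.4. RSD 8 stood apart by a trend of its deviation with transcript GC content (Spearman -0.718 over genes), as did RSD 2 less strongly (-0.502), while the other libraries lay between -0.042 and 0.478. In bulk samples fewer cells of a type and less RNA per cell cannot be told apart.

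Hspa1a and Hspa1b encode the main stress-inducible HSP70. They lie side by side on chromosome 17 as single-exon genes, Hspa1a at chr17:34969190-34972156 and Hspa1b at chr17:34956436-34959238 (mm10, minus strand), 9951 bases apart. Their coding sequences differed at 8 of 1926 aligned bases (99.4% identity) with an identical run of 638 bases, so reads can be exchanged between them and the separate values are uncertain. The ratio of Hspa1a to Hspa1b was 0.972 to 1.22 over the 13 libraries. Hspa1a also shares 564 exon bases with Gm20481 on the opposite strand, and it is not given whether the counting used strand.

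In the controls with low numbers, Hspa1a was at 5378 normalized reads in CON 1, 1506 in CON 4 and 1774 in CON 5. In the RSD libraries of the same range it was at 12133 in RSD 2, 12233 in RSD 7 and 14885 in RSD 8. In the high numbers it was at 31922, 21172 and 35426 in CON 17, 18 and 19, and at 29942, 34383, 30159 and 44501 in RSD 10, 11, 12 and 13. The 3 low-numbered controls were thus the lowest of all, the 3 low-numbered RSD libraries came next and did not overlap them, and every high-numbered library of either group was higher than every low-numbered one. In the high range the RSD and CON libraries overlapped. Hspa1b had the same order of these blocks, with 1274 to 5274 in CON 1, 4 and 5, 11965 to 14953 in RSD 2, 7 and 8, 20618 to 34505 in CON 17 to 19 and 29962 to 44303 in RSD 10 to 13. From lowest to highest library Hspa1a spanned 29.5-fold and Hspa1b 34.8-fold, the widest spans of the 9 genes.

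Over all libraries Hspa1a was at 25462 ± 12575 normalized reads in RSD (SD, n = 7) and 16196 ± 15379.8 in CON (SD, n = 6), a log2 difference of 1.44 ± 0.81 (SE), and the groups overlapped. Within numbers 1 to 8 the means were 13084 ± 1561 and 2886 ± 2162 (SD, n = 3 each), 4.53 times as high in RSD, or a log2 difference of 2.42 ± 0.41. Within numbers 10 to 19 they were 34746 ± 6817 (SD, n = 4) and 29507 ± 7428 (SD, n = 3), 1.18 times as high, or 0.25 ± 0.38. The value for Hspa1a therefore turned on the libraries compared. The log2 difference of all 7 RSD libraries was 3.22 against CON 1, 4 and 5 and -0.35 against CON 17, 18 and 19. These values set RSD libraries of both ranges against controls of a single range, so they also hold the difference between ranges. DESeq2, which compares mean counts rather than mean logs, gave 0.65 for Hspa1a over all libraries, beside 0.69 for Hspa1b and 0.75 for Hsph1. With limma-voom and sample weights Hspa1a was at 2.55, and leaving out 1 library in turn gave 0.94 (without CON 4) to 1.85 (without CON 19). For Hspa1b the differences were 1.55 ± 0.85 over all libraries, 2.61 ± 0.46 in the low range and 0.28 ± 0.43 in the high range, and 3.41 and -0.32 against the low-numbered and high-numbered controls.

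**Figure D1:**
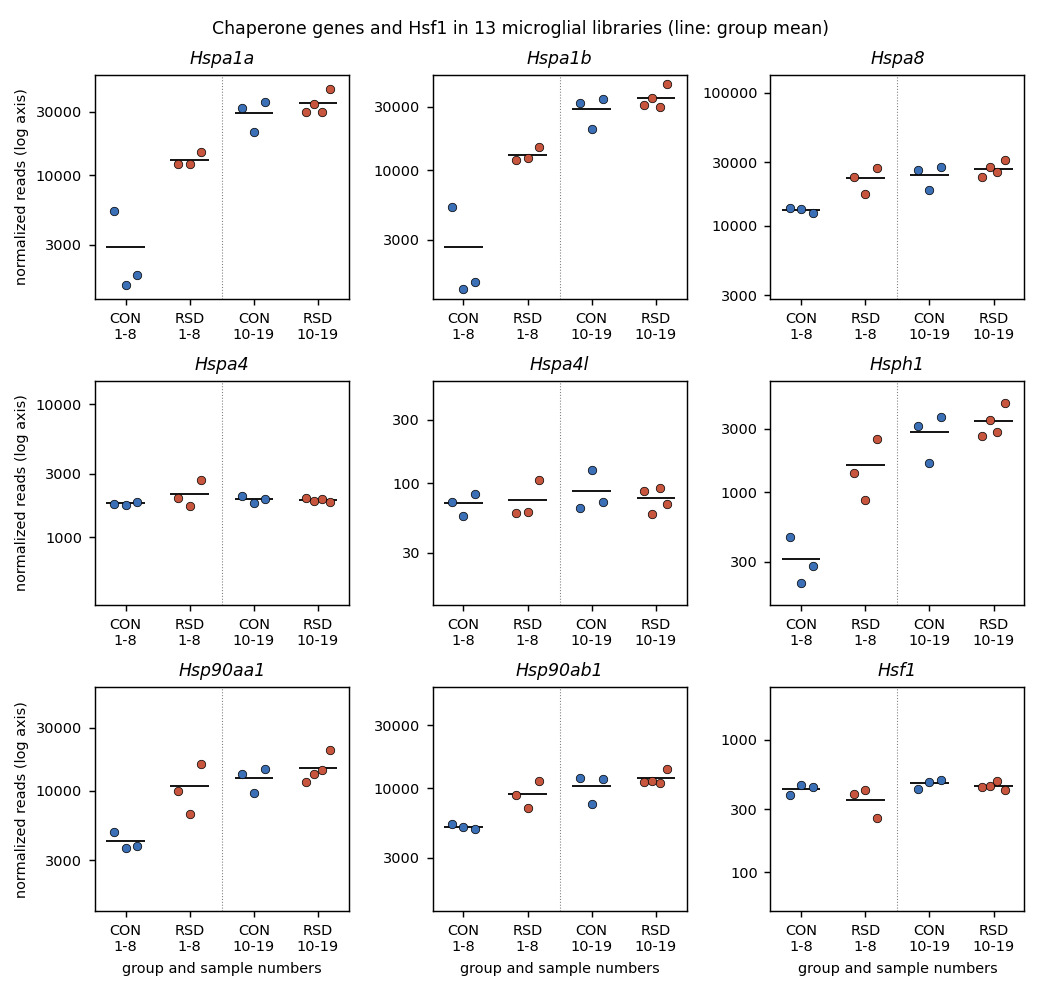
Normalized reads of the 9 genes in each of 13 libraries, on log axes that each span the same ratio, by group and sample-number range, with a line at each mean (points are libraries, spread sideways for legibility). Hspa1a, Hspa1b and Hsph1 climb from the low-numbered controls to the high-numbered libraries, and Hspa4, Hspa4l and Hsf1 stay within a narrow band.

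Hspa8 encodes HSC70, the HSP70 that cells make at all times. The gene (chr9:40800984-40810087, plus strand) hosts the small nucleolar RNAs Snord14c, Snord14d and Snord14e. Hspa8 was at 13569, 13388 and 12385 normalized reads in CON 1, 4 and 5 and at 23424, 17361 and 27109.7 in RSD 2, 7 and 8. It was at 26238, 18563 and 27548 in CON 17, 18 and 19 and at 23064, 27421, 25376 and 30937 in RSD 10, 11, 12 and 13. Again the 3 low-numbered controls lay below all 10 other libraries, but the low-numbered RSD libraries overlapped the high-numbered ones and the whole span was 2.50-fold. The log2 difference of RSD from CON was 0.48 ± 0.20 over all libraries, 0.76 ± 0.17 in the low range and 0.16 ± 0.16 in the high range.

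Among the HSP110 exchange factors, which are distant HSP70 relatives, Hsph1 (chr5:149614287-149636376, minus strand) encodes the heat-inducible one. It was at 465.5, 208.7 and 279.6 normalized reads in CON 1, 4 and 5 and at 1389, 871.5 and 2542 in RSD 2, 7 and 8. It was at 3136, 1672 and 3664 in CON 17, 18 and 19 and at 2677, 3535, 2869 and 4694 in RSD 10, 11, 12 and 13. The blocks had the same order as for Hspa1a, except that RSD 8 was above CON 18. Means were 1601 ± 855 in RSD and 318 ± 133 in CON in the low range (SD, n = 3 each; ratio 5.03), and 3444 ± 911 (SD, n = 4) and 2824 ± 1032 (SD, n = 3) in the high range (ratio 1.22). The log2 difference was 1.38 ± 0.73 over all libraries, 2.27 ± 0.45 in the low range and 0.33 ± 0.42 in the high range.

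The other HSP110 genes did not share this order. Hspa4 (Apg-2; chr11:53259814-53300457, minus strand) was at 1750.4 to 1846 in CON 1, 4 and 5 and 1705 to 2696 in RSD 2, 7 and 8, and at 1814 to 2021 and 1841 to 1971 in the high-numbered controls and RSD libraries. RSD 8 held the 2696, and the remaining 12 libraries lay between 1705 and 2021. Hspa4l (Apg-1; chr3:40744495-40796103, plus strand) ran from 56.58 in CON 4 to 125.1 in CON 18 with the groups interleaved, at levels where counting error alone is near 10%. Their RSD minus CON log2 differences were 0.09 ± 0.09 and -0.04 ± 0.19 over all libraries. Coding sequences of the 3 HSP110 genes were 61.0% to 65.5% identical, far from the 99.4% of Hspa1a and Hspa1b.

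The stress-inducible HSP90 alpha gene Hsp90aa1 (chr12:110690605-110702728, minus strand) was at 4902, 3728 and 3876 normalized reads in CON 1, 4 and 5 and at 9975, 6687 and 15961 in RSD 2, 7 and 8. It was at 13376, 9632 and 14717 in CON 17, 18 and 19 and at 11637, 13306, 14449 and 20235 in RSD 10, 11, 12 and 13. Only the low-numbered controls were separate from the rest, and RSD 8 exceeded every high-numbered library but RSD 13. The log2 difference of RSD from CON was 0.81 ± 0.38 over all libraries, 1.30 ± 0.30 in the low range and 0.24 ± 0.28 in the high range. The ratio of means was 2.61 in the low range and 1.19 in the high range.

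Hsp90ab1 (chr17:45567775-45573271, minus strand) encodes HSP90 beta, which is made at all times. It was at 5428, 5101 and 4959.7 normalized reads in CON 1, 4 and 5 and at 8978, 7165 and 11353 in RSD 2, 7 and 8. It was at 11997, 7576 and 11876 in CON 17, 18 and 19 and at 11231, 11457, 11054 and 13942 in RSD 10, 11, 12 and 13. As for Hspa8, the low-numbered controls formed a tight block of 5163 ± 240.2 (SD, n = 3) below all others. The log2 difference of RSD from CON was 0.54 ± 0.23 over all libraries, 0.80 ± 0.18 in the low range and 0.21 ± 0.17 in the high range.

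Hsf1 (chr15:76477422-76501913, plus strand), whose protein is regulated mainly after translation, did not share this order. It was at 382.8, 452.7 and 436.5 normalized reads in CON 1, 4 and 5 and at 390.5, 415.7 and 255.4 in RSD 2, 7 and 8. It was at 424.0, 481.2 and 496.9 in CON 17, 18 and 19 and at 441.6, 449.9, 486.5 and 416.8 in RSD 10, 11, 12 and 13. RSD 8 was lowest and all other libraries lay within 382.8 to 496.9. The log2 difference of RSD from CON was -0.15 ± 0.12 over all libraries, -0.29 ± 0.15 in the low range and -0.06 ± 0.14 in the high range.

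Across the 9 genes, then, 6 (Hspa1a, Hspa1b, Hspa8, Hsph1, Hsp90aa1 and Hsp90ab1) had every low-numbered RSD library above every low-numbered control, where 16.2% of all 12496 genes tested did, and 0 had them all below, where 14.3% did. Hspa1a and Hspa1b count as 2 of these 6, although reads can be exchanged between them. In the high range 0 of 9 had RSD separate and higher, where 4.33% of genes did, and 0 separate and lower, where 4.26% did. Over all 13 libraries the groups overlapped for 9 of 9, and 0.0320% of genes had RSD separate and higher. In limma's moderated linear model over the 12496 genes, 0 genes (0%) passed an adjusted p of 0.05 for RSD against CON, the members included. Without adjustment 500 genes had p under 0.05, edgeR called 0 with 601 unadjusted, and DESeq2 called 2, no member among them. The median log2 difference was 0.54 for the 9 members and 0.006 for all genes.

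The low-range separation coincided with GC trends, which were -0.502 in RSD 2, 0.096 in RSD 7 and -0.718 in RSD 8, against 0.289 in CON 1, 0.478 in CON 4 and 0.338 in CON 5. After each library was corrected for its GC trend, the low-range log2 differences were 2.79 for Hspa1a, 2.96 for Hspa1b, 2.19 for Hsph1, 1.10 for Hsp90aa1, 0.87 for Hsp90ab1 and 0.63 for Hspa8. Without RSD 8 and without the correction they were 2.32, 2.51, 1.87, 0.98, 0.64 and 0.62 in the same order. In the high range, leaving out CON 18 brought the 6 differences to between -0.02 and 0.06. These settings were chosen after seeing the data.

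The amount by which RSD minus CON differed between the ranges was taken from the interaction term in limma. It was -2.17 ± 0.56 (log2, SE) for Hspa1a, -2.33 ± 0.63 for Hspa1b, -1.94 ± 0.61 for Hsph1, -1.07 ± 0.41 for Hsp90aa1, -0.60 ± 0.23 for Hspa8 and -0.59 ± 0.25 for Hsp90ab1. With limma 0 of 9 members passed an adjusted p of 0.05, as did 0 of 12496 genes (0%), with 2708 under an unadjusted 0.05, and edgeR also called 0, with 2713 unadjusted. The tools differed here. DESeq2 tested 12391 genes and gave 6407 of them an adjusted p. It called 423 of these 6407, with 3 members (Hspa1a, Hsph1 and Hsp90aa1). Limma-voom with sample weights called 1534 of 12496, with 5 members (Hspa1a, Hspa1b, Hspa8, Hsph1 and Hsp90ab1). In limma the count also moved with single libraries. Without RSD 7, 1457 of 12455 genes passed, with Hspa8, Hsph1 and Hsp90aa1 among them. Without CON 1, 3 of 12571 passed, with Hspa1a and Hspa1b among them.

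**Figure D2:**
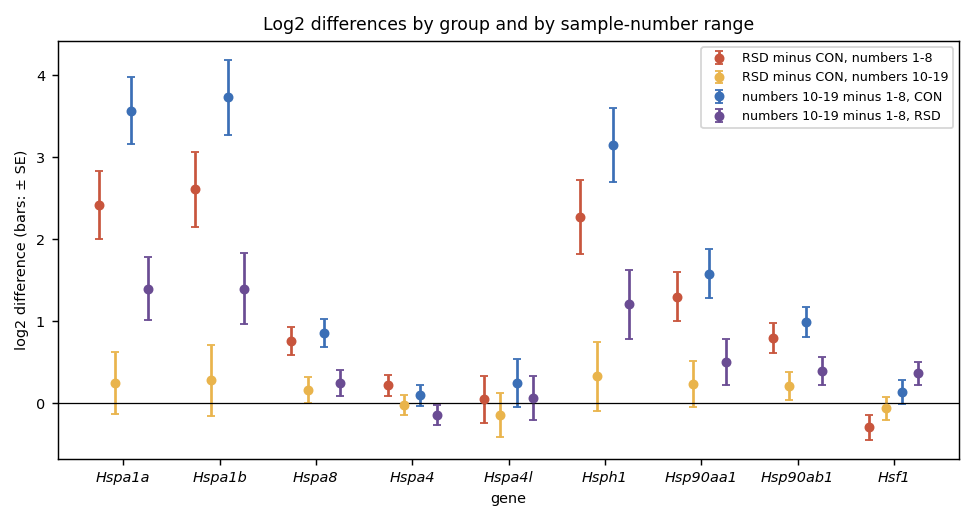
Log2 differences of the 9 genes with standard errors from limma, for RSD minus CON within each number range and for numbers 10 to 19 minus 1 to 8 within each group. The controls' own difference between ranges, 3.57 for Hspa1a, is larger than the RSD minus CON difference in the low range, 2.42.

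For the 6 chaperone genes the mean was higher in the high range in both groups, and the ratio was higher in CON than in RSD, a contrast that is the interaction given above. For Hspa1a the ratio of the high-range mean to the low-range mean was 10.2 in CON and 2.66 in RSD, for Hspa1b 10.9 and 2.66, and for Hsph1 8.88 and 2.15. For Hsp90aa1 it was 3.02 and 1.37, for Hsp90ab1 2.03 and 1.30, and for Hspa8 1.84 and 1.18. The other members did not share this: for Hspa4 the ratio was 1.07 in CON and 0.894 in RSD, for Hspa4l 1.23 and 1.03, and for Hsf1 1.10 and 1.27. By their labels, controls of both ranges were undefeated. In CON the same 6 chaperone genes had all high-numbered libraries above all low-numbered ones, where 11.1% of genes did. In RSD it was Hspa1a, Hspa1b, Hsph1 and, by a margin of 416.8 against 415.7 normalized reads, Hsf1, where also 11.1% of genes did.

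With group as a term in limma, the log2 difference between ranges was 2.41 ± 0.42 (SE) for Hspa1a, 2.49 ± 0.46 for Hspa1b, 2.11 ± 0.41 for Hsph1, 1.01 ± 0.24 for Hsp90aa1, 0.67 ± 0.14 for Hsp90ab1 and 0.54 ± 0.14 for Hspa8. For Hsf1 it was 0.26 ± 0.11, for Hspa4l 0.15 ± 0.19 and for Hspa4 -0.03 ± 0.09. In all, 86 genes passed an adjusted p of 0.05 (0.688%), 66 of them higher in the high range (0.528%), and 4 of these were the members Hspa1a, Hspa1b, Hsph1 and Hsp90ab1. Within CON alone the same 4 members passed (background 0.232%), and within RSD alone 0 of 9 did (background 0.344%). By size, Hspa1b had rank 2, Hspa1a rank 4 and Hsph1 rank 6 among the 66. The ranges did not overlap for Hspa1a and Hspa1b, where 0.624% of genes had the high range separate and higher.

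These calls depended on the setting. The members' levels by range were known when they were chosen, so passing or failing supports nothing about them. DESeq2 and limma-voom with sample weights each called 6 members, the 4 above with Hspa8 and Hsp90aa1, and edgeR called 2, Hspa1a and Hsp90ab1. Over all genes DESeq2 called 255 of 12349, limma-voom 265 of 12496 and edgeR 82 of 12496. In limma Hspa1a passed in 8 of 13 fits that each left out 1 library, and failed without CON 5, RSD 7, RSD 8, RSD 13 or CON 19. Hspa1b passed in 4, without CON 1, RSD 2, RSD 10 or RSD 12, while Hsph1 passed in 2, without RSD 8 or RSD 10, and Hsp90ab1 in 2, without RSD 8 or CON 18. Hspa8 passed in 1 of these 13 fits, without CON 18, and Hsp90aa1 in 1, without RSD 8. Over all genes these fits called from 33 of 12455 (without RSD 7) to 172 of 12583 (without CON 18). The log2 differences moved little, between 2.15 and 2.59 for Hspa1a and between 1.90 and 2.50 for Hsph1 over 22 alternatives.

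Other measures changed between the ranges beside the chaperones. The sum of 18 immediate early genes, which stimulated cells and cells under isolation switch on, was 156901 to 194354 normalized reads in CON and 151116 to 197414 in RSD in the low range, and 200737 to 272781 and 225117 to 271174 in the high range. The mean log2 difference between ranges was 0.47 (exact two-sided permutation p = 0.00117, 0.0117 after adjustment over 20 such tests of summed lists). In the low range the RSD and CON libraries overlapped in this sum. The sum of 7 neutrophil markers was 181.5 to 743.9 in CON and 785.0 to 1195 in RSD in the low range, and 11.60 to 47.33 and 21.12 to 138.2 in the high range, a log2 difference of -3.97 (exact two-sided permutation p = 5.83e-04, the smallest that 1716 assignments can give, 0.0117 adjusted). In the low range every RSD library was above every control in this sum, as for the 6 chaperone genes, while between ranges the sum went the opposite way. Of these 7 markers 5 were at 0 in some libraries and 0 in all. Both lists were chosen with earlier results of these data known. Their permutation p-values therefore describe the sums and are no independent evidence of a difference between ranges. The part of isolation, of other cells or of handling in the chaperone values was not tested, and what the number ranges stand for cannot be told from the labels.

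**Figure D3:**
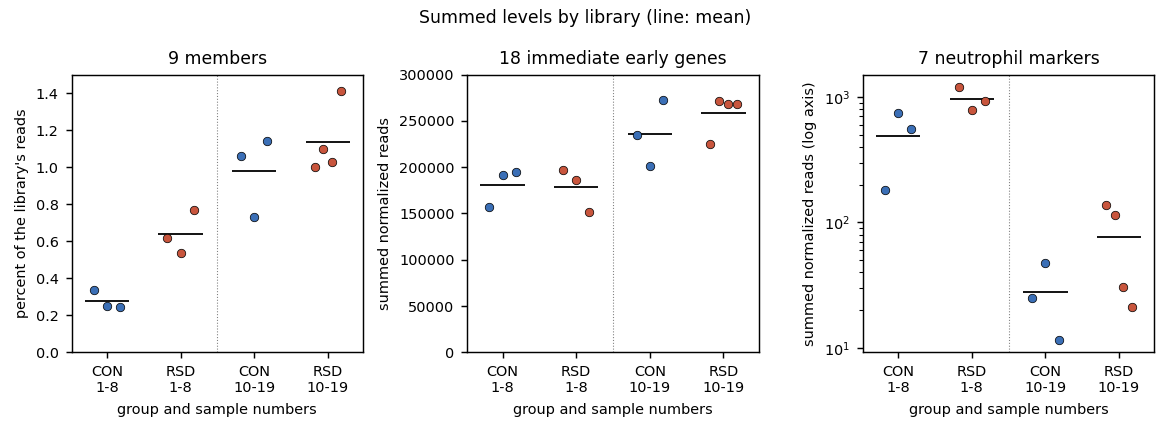
Share of each library's reads taken by the 9 genes, and summed normalized reads of 18 immediate early genes and of 7 neutrophil markers (log axis), by group and number range, with lines at the means. The 9 genes took 0.247% to 0.339% of reads in the low-numbered controls and 0.732% to 1.41% in the high-numbered libraries.

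Compared per length of exon sequence, the order of the genes also differed between blocks. Over the 13 libraries Hspa1b and Hspa1a were highest at 7528 ± 5067 and 7140.4 ± 4775 normalized reads per kilobase (SD, n = 13). They were followed by Hspa8 (5122 ± 1455), Hsp90ab1 (3132 ± 1010.1) and Hsp90aa1 (2788 ± 1291). Hspa4 (349 ± 44.8) and Hsph1 (296 ± 199) came far below, then Hsf1 (59.9 ± 8.70) and Hspa4l (6.56 ± 1.75). The first 5 differed by less than the spread of Hspa1a and Hspa1b, and Hspa4 and Hsph1 by less than the spread of Hsph1. In CON 1, 4 and 5 the constitutive genes led, with means of 3049 per kilobase for Hspa8 and 1722 for Hsp90ab1, against 1061 for Hsp90aa1, 973 for Hspa1a and 951 for Hspa1b, and Hsph1 (43.8) lay below Hsf1 (59.7). In CON 17, 18 and 19 Hspa1b (10359.9) and Hspa1a (9945) exceeded Hspa8 (5607).

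Across the 13 libraries the 6 chaperone genes varied together. Their 15 pairwise Spearman correlations were 0.81 to 0.99 with a median of 0.92. Their 18 correlations with Hspa4, Hspa4l and Hsf1 were -0.02 to 0.61 with a median of 0.26. All genes share the same libraries, which differ in level between the 4 combinations of group and number range. The mean of each group and number range was then subtracted, a setting chosen after seeing the data. The 15 pairs were then at 0.68 to 0.99 with a median of 0.81, and Hsf1 correlated with the 6 at -0.51 to -0.70. Pearson correlations of the 15 pairs were 0.90 to 1.00 as measured (median 0.97). After the subtraction they spread more widely, from 0.42 for Hspa1b with Hspa8 to 1.00 (median 0.76). Among the remaining deviations, then, libraries above their block for one of the 6 tended to be above it for the others. Hsf1 tended to the opposite side in this setting only. As measured, Hsf1 had Spearman correlations of 0.02 to 0.33 with the 6, and without CON 18 and RSD 8 of 0.17 to 0.29.

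**Figure D4:**
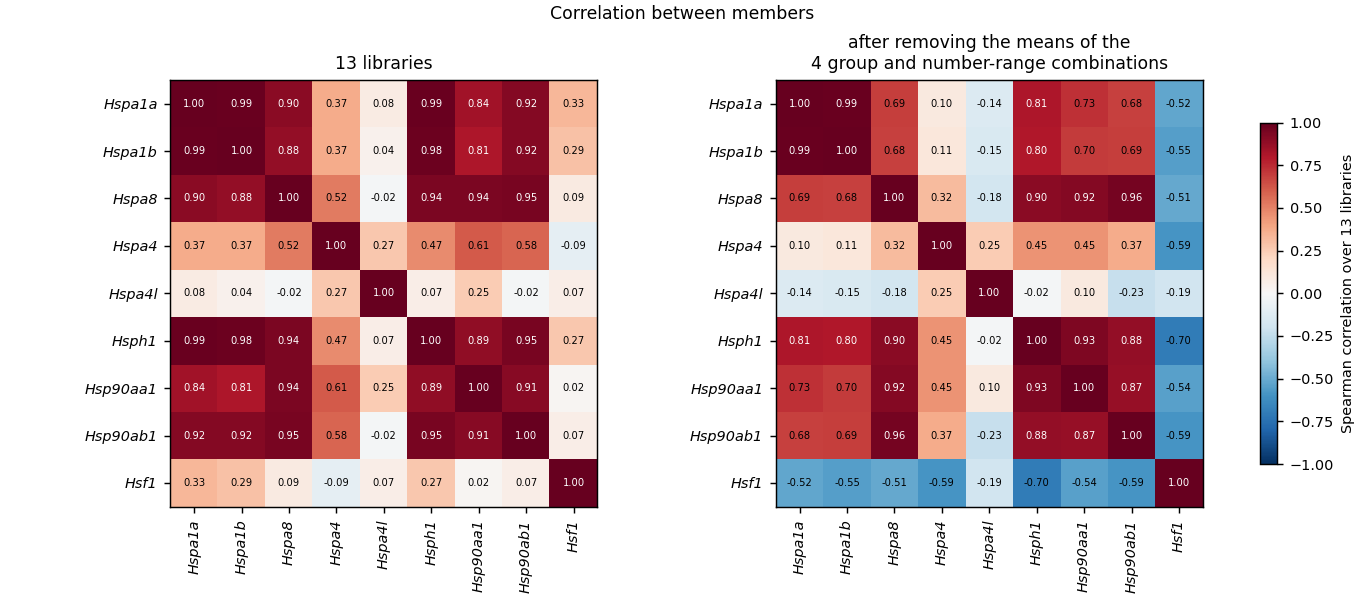
Spearman correlations between the 9 genes over 13 libraries, left as measured and right after subtracting the mean of each of the 4 combinations of group and number range. The 6 chaperone genes form a block of 0.81 to 0.99 on the left and 0.68 to 0.99 on the right.

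The genes most like each member over the 13 libraries were largely other chaperones. Besides one another, Hspa1a and Hspa1b had Hspa1l (0.973 and 0.984), the neighbouring HSP70 gene that starts 546 bases from Hspa1a on the opposite strand. Hsph1 had Dnajb1 (0.984), Hsp90ab1 had Dnajb1 (0.956), and Hsp90aa1 had Dnaja1 (0.962) and the mitochondrial chaperonin Hspd1 (0.945). Hspa8 had Dnajb1 and Dnaja1, each at 0.951. The genes nearest to the others were of other kinds: Mad2l1 (0.929), Adam17 and Glud1 (0.912 each) for Hspa4, Cers6 (0.874), Arhgap18 and Jade3 (0.841 each) for Hspa4l, and Brpf1 (0.962), Zfhx2 (0.940) and the immediate early gene Ier2 (0.934) for Hsf1. Nearest to the mean of all 9 scaled members were 4933421O10Rik (0.940), Hspd1 (0.923), Rabgef1 (0.918), Mat2a (0.912) and Tex30 (0.896).

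In the rest of the chaperone network single genes moved as far as the members between ranges, and most others did not pass. These calls come from limma on all libraries, and how they move with the setting was not examined gene by gene. The lists were chosen with earlier results of these data known. Of 11 other HSP70, HSP90 and HSP110 paralogs, 0 passed for RSD against CON, and 1, Hspa1l, was higher in the high range (log2 2.19 ± 0.39, limma adjusted p = 0.0313). Hspa1l lies 546 bases from Hspa1a, and whether its reads are separate from those of Hspa1a and Hspa1b was not tested. The RSD minus CON difference of Hspa1l was 1.40 ± 0.74, beside 0.28 ± 0.16 for Hspa5, the chaperone of the endoplasmic reticulum, and 0.41 ± 0.25 for Hspa12a. Of 15 DNAJ partners, 1 rose in the high range, Dnajb1, the main HSP40 of the stress response (0.81 ± 0.15, limma adjusted p = 0.0217), and 0 passed for RSD. Dnajb4 (0.70 ± 0.27), Dnaja1 (0.79 ± 0.33) and Dnajb1 (0.58 ± 0.27) had the smallest p for RSD minus CON in that list, where the median was 0.09.

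Of 5 BAG and other exchange factors tested, Bag3, which links HSP70 to autophagy, was higher in the high range (0.92 ± 0.18, limma adjusted p = 0.0379), and for RSD minus CON Bag4 was at 0.22 ± 0.08 and Bag5 at 0.15 ± 0.09, neither passing. Of 3 tested genes with an Hspb symbol, Hspb1 was higher in the high range (2.49 ± 0.31, limma adjusted p = 0.00229). Hspb1 encodes a small heat shock protein, which holds unfolded proteins without ATP. For RSD minus CON it was at 1.06 ± 0.78, Hspb6 at -0.31 ± 0.19 and Hspb11 at 0.18 ± 0.39. Of 7 mitochondrial chaperones, Hspe1, the partner of Hspd1, was higher in the high range (0.76 ± 0.14, limma adjusted p = 0.0225), and for RSD minus CON Hspe1 was at 0.62 ± 0.25, Hspd1 at 0.45 ± 0.19 and Dnaja3 at 0.16 ± 0.10.

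Among 19 co-chaperones of HSP90 and HSP70, 0 passed in either comparison, and the medians were 0.04 for RSD minus CON and 0.10 between ranges. Sugt1 (0.32 ± 0.10), Tomm34 (-0.17 ± 0.08) and Chordc1 (0.24 ± 0.11) had the smallest p there. None of 7 tested genes of the HSF family and its regulators passed either (0 of 7 in both comparisons), with RSD minus CON values of 0.21 ± 0.11 for Hsf2, 0.26 ± 0.14 for the deacetylase gene Sirt1 and 0.10 ± 0.12 for Ier5. Of 13 genes of the cytosolic chaperonin TRiC and prefoldin, 0 passed in either comparison; Pfdn2 (0.28 ± 0.13), Pfdn4 (0.40 ± 0.22) and Tcp1 (0.15 ± 0.09) had the smallest p for RSD minus CON. Of 18 immediate early genes 7 were higher in the high range (Atf3, Klf6, Dusp1, Fos, Jun, Nr4a1 and Klf2, named because they passed), with Fos at 0.65 ± 0.09 (limma adjusted p = 0.00296), and 0 passed for RSD, where Btg2 (0.22 ± 0.11), Fos (0.29 ± 0.19) and Egr2 (0.36 ± 0.26) had the smallest p. The median difference between ranges was 0.59 for the 18 immediate early genes, 0.67 for the 9 members and -0.007 for all genes.

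**Figure D5:**
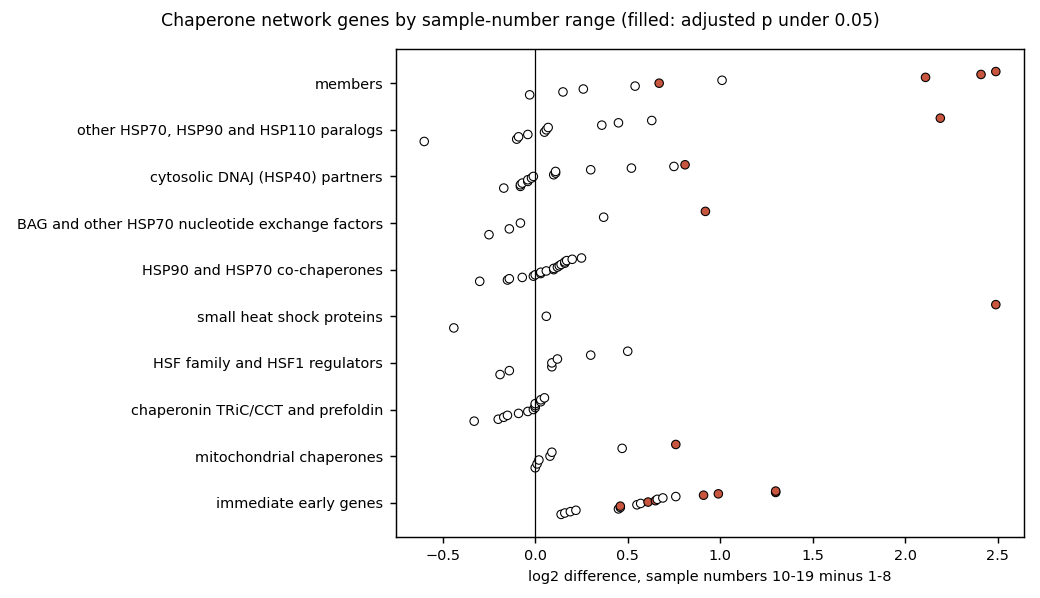
Log2 difference between numbers 10 to 19 and 1 to 8 for each gene of 10 lists (points, spread upward within a list), filled where limma's adjusted p was under 0.05. The filled points outside the members and the immediate early genes are single genes, Hspa1l, Dnajb1, Bag3, Hspb1 and Hspe1.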

How the data were processed

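The deposited table gives, for 14518 gene entries and 13 libraries, a signal the authors made by dividing read counts by a size factor per library. Alignment used STAR on mm10 and normalization DESeq2, per the submitters' processing notes. Their versions, and how reads were assigned to genes and strands, were not given in the sources used here. Within each library 100.0% of values were whole multiples of 1 step (tolerance 0.01 reads), so whole reads were recovered. The number of table columns left unused was 0.

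edgeR's filterByExpr was applied to the recovered reads (minimum count 10, minimum total 15), leaving 12496. The design named edgeR for whole counts and limma for normalized values. The reported test is limma (3.58.1, R 4.3.3) on log2(value + 1) with trend and robust variance, two-sided, Benjamini-Hochberg adjusted, threshold 0.05. This scale understates changes of low genes. Within-range values come from 1 fit with all 4 combinations of group and range. P-values set a difference against the spread between samples, and that spread may be technical. Alternatives were edgeR (4.0.16) and DESeq2 (1.42.0) on recovered reads, limma-voom with sample weights, pseudocounts 0.5 and 5, other filters, a GC correction, number range as a term, subsets of controls and each library left out. The fit was tested on simulated data.

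The members and lists were chosen with earlier results of these data known. Named were all members, up to 3 genes of smallest p for RSD minus CON per list, the 3 genes of highest Spearman correlation with each member and the 5 with the members' mean. Of the symbols, 13790 matched GENCODE M21 (GRCm38, that is, mm10), 568 a RefSeq synonym and 160 neither. The design had planned protein identity; identity of coding sequences was computed in its place. Promoters were read from RefSeq. Lengths are unions of exons.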

Additional observations from a re-analysis of the deposited data

Results flagged for a closer look

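In each group of 7 RSD and 6 CON libraries the highest and lowest value of each member was compared with its neighbour (Dixon's test, 18 groups). Chance flags about 1 in 20 groups. Hspa4 in RSD 8 was at 2696 normalized reads, above the other RSD libraries, with a gap of 0.732 of the group's range. Hsf1 in RSD 8 was at 255.4, below the other RSD libraries, with a gap of 0.585. On the log2 scale RSD 8 lay 0.51 above the median of the other 6 RSD libraries for Hspa4 and -0.75 from it for Hsf1. After correction for the trend with GC content, which was strongest in RSD 8 (-0.718), these were 0.33 and -0.45. The part of that trend in the values was not tested beyond this correction.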

How the results depend on the processing

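No paired analysis was possible because the RSD and CON samples share no replicate numbers. For RSD against CON, with 0 genes called, DESeq2 called 2 and the comparison with CON 1, 4 and 5 only called 5; the other 25 alternatives called 0. Between number ranges, where 86 genes passed (66 higher, 20 lower), DESeq2 called 255 (163 and 92), limma-voom with sample weights 265 (147 and 118) and the fit without CON 18 and RSD 8 called 246 (139 and 107). Leaving out 1 library gave 33 (without RSD 7, and also without CON 19) to 172 (without CON 18). For the interaction, with 0 genes called, DESeq2 gave 423, limma-voom 1534, the fit without CON 18 and RSD 8 gave 463, and leaving out 1 library 0 to 1457. The cause was not tested. For the interaction, DESeq2 gave an adjusted p to 6407 of 12391 genes, and none to Hspa4l.

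The range difference of Hspa4 (-0.03) changed sign with limma-voom (0.09), without RSD 8 (0.08), without CON 18 and RSD 8 (0.09) and with the GC correction (0.01), and over the fits that left out 1 library it was -0.08 to 0.08. The interaction of Hspa4l (-0.19) did so with limma-voom (0.25), without RSD 8 (0.08), without CON 18 (0.11), without both (0.38) and with the GC correction (0.22), and over the fits that left out 1 library it was -0.37 to 0.11. The GC correction called 108 of 12374 genes between ranges. It ended the calls of Hspa1a (2.28), Hspa1b (2.37) and Hsp90ab1 (0.66) and called Hsp90aa1 (1.08) and Hspa8 (0.58). edgeR ended those of Hspa1b (2.33) and Hsph1 (2.01), and DESeq2 and limma-voom called Hspa8 (0.54 and 0.69) and Hsp90aa1 (0.98 and 1.25). With the longest transcript as length, Hspa8 was at 6976, Hsph1 at 452, Hspa4 at 418 and Hsf1 at 136 normalized reads per kilobase. Hsph1 then stood above Hspa4, the reverse of their order by unions of exons. Depth limits Hspa4l most, at 56.58 to 125.1 normalized reads.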
